A study of Mus musculus with 8 samples.

Results

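The type I interferon antiviral response genes are 39 genes of the cell's defence against viruses, among 21160 genes that have a transcript cluster of their own on the array. They were chosen by name, with earlier treatment values of these same arrays known, so their differences between treatments are given here as a description without a test of their own. All 39 had 1 cluster each, and 36 had a mean of at least 4.892 on the log2 scale over the 8 arrays, the 40th percentile of all genes, above which 12696 genes were tested. The 3 members below it were Oas2, Oasl1 and Rsad2.

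RNA of naive CD8+ T cells of female mice, stimulated in vitro, was measured on 8 arrays, with values in log2 units after robust multi-array averaging (RMA). The 4 groups were cells kept for 48 h with a PPARα agonist, a PPARβ agonist, a PPARγ agonist or DMSO, the solvent, all labelled day 2. Each group held 2 arrays, and each of 2 title prefixes, called culture set 1 and culture set 2 here, held 1 array of every group. The compounds, their doses, the stimulus and what the prefix stands for are not stated in the labels. Whether the 2 arrays of a treatment stand for different mice or dishes is not stated in the labels, and a p-value here therefore covers the spread among arrays alone, which may be technical. The number of arrays limits the precision. In bulk RNA, fewer cells expressing a gene and less RNA per cell cannot be told apart.

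Type I interferons are secreted by cells that sense viral nucleic acids, and they bind the receptor IFNAR1/IFNAR2 on the same and neighbouring cells. The receptor's kinases switch on the transcription factor complex ISGF3, which holds STAT2 and IRF9 and binds interferon-stimulated response elements in the promoters of antiviral genes. In T cells this signal acts together with antigen and co-stimulation during priming, and interferon gamma, which activated CD8+ T cells secrete themselves, induces an overlapping set of genes. The PPARs are nuclear receptors for fatty acids and their derivatives that bind DNA with RXR.

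The antiviral genes varied mostly within culture set 1, where the DMSO array and the PPARβ array stood high and the PPARα and PPARγ arrays stood low. Ifit3, which encodes an interferon-induced protein with tetratricopeptide repeats, stood in set 1 at 7.87, 10.64 and 7.93 with agonists of PPARα, PPARβ and PPARγ, against 10.07 with DMSO. In set 2 the same gene stood at 7.71, 8.12 and 7.78 with the 3 agonists, against 7.80 with DMSO. The 2 high values were single arrays of set 1, and the other 6 arrays lay within 7.71 to 8.12.

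That order of the arrays ran through most members. In set 1, both the PPARβ and the DMSO value lay above both the PPARα and the PPARγ value in 31 of 36 tested members, beside 15.6% of all tested genes, and in set 2 in 10 of 36, beside 20.0%. The range over the 4 arrays reached 1 log2 unit in 15 of 36 tested members in set 1 (2.76% of all tested genes) and in 1 of 36, Ifi44, in set 2 (3.42%). The median range over the 39 members was 0.81 in set 1 and 0.41 in set 2, beside 0.36 and 0.38 over all tested genes. In set 1 the PPARγ array was the lowest of the 4 in 27 of 36 tested members (22.4% of all tested genes) and the PPARα array in the other 9 (27.1%). The highest array of set 1 was that of the PPARβ agonist in 20 (25.7%), of DMSO in 13 (22.7%) and of the PPARα agonist in 3 (21.9%). Each of these counts rests on 1 array per treatment within a set, and the values that chose the members come from the same arrays.

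**Figure D1:**
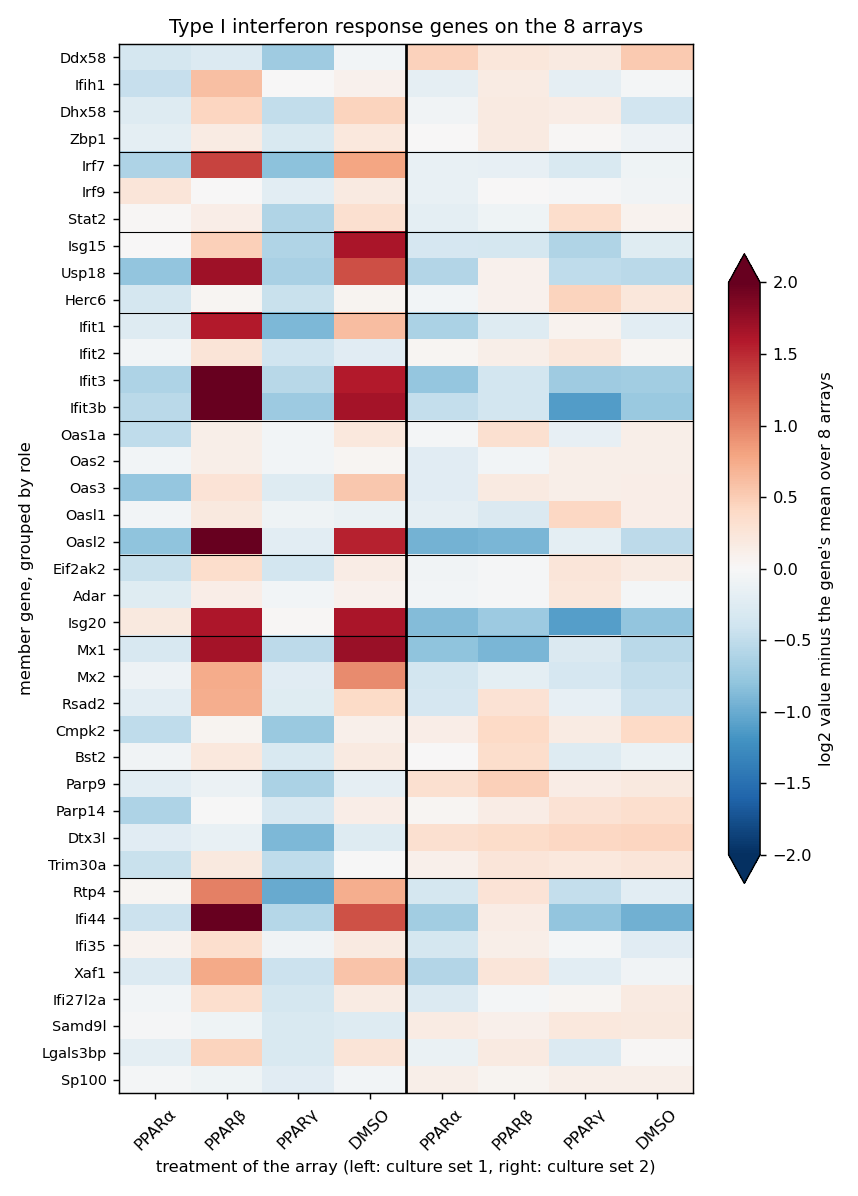
Log2 value of each of the 39 members (rows, grouped by role) minus its own mean over the 8 arrays, with the arrays of culture set 1 in the left 4 columns and those of set 2 in the right 4. Red marks values above and blue values below the gene's mean, the scale is capped at 2 log2 units, and the PPARβ and DMSO columns of set 1 hold the darkest red cells.

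Most of these genes are known targets of ISGF3, so the promoters were searched for its response element. RefSeq promoters of build GRCm38.p6, from 250 bases before to 50 bases after the start, were at hand for 29 of the 39 members; no entry was matched for Dhx58, Zbp1, Usp18, Oas2, Mx1, Mx2, Parp9, Parp14, Rtp4 and Ifi27l2a. The core of the interferon-stimulated response element was searched as GAAA, any 2 bases and GAAA again, on both strands, and overlapping matches were each counted. It was in 13 of the 29 members, 44.8%, beside 1079 of 27025 genes with a promoter, 3.99%. The 13 were Bst2, Ddx58, Eif2ak2, Ifih1, Ifit1, Ifit3, Ifit3b, Isg15, Oas1a, Oas3, Rsad2, Stat2 and Trim30a. The gamma-activated site of interferon gamma-induced genes, searched as TTC, any 3 bases and GAA, was in 7 of the 29 members, 24.1%, beside 9.55% of genes, and it overlapped the other motif in Bst2. The element that PPAR and RXR bind together, searched as AGGTCA, any base and AGGTCA again, was in 0 of the 29, beside 0.0481% of genes. A match is a run of letters, not a site shown to be used, and a missing match says only that these letters are not in this window.

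The 250 bases before the start are shown for 3 IFIT genes and Isg15, which had wide ranges in set 1 and hold more than 1 match. Capitals mark the response element core on either strand, and overlapping matches appear as 1 run. The Ifit3 stretch is chr19:34583279-34583528, the Ifit3b stretch chr19:34607707-34607956 and the Ifit1 stretch chr19:34640639-34640888, all on the plus strand, and the Isg15 stretch is chr4:156200819-156201068 on the minus strand.
Ifit3: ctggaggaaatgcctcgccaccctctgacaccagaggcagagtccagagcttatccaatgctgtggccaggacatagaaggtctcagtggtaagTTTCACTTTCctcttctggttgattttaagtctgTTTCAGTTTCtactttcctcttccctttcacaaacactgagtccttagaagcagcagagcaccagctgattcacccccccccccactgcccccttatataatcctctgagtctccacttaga
Ifit3b: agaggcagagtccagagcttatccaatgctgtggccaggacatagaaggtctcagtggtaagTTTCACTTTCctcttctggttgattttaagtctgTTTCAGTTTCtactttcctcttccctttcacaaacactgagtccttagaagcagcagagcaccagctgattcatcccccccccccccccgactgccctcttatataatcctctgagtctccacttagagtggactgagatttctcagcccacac
Ifit1: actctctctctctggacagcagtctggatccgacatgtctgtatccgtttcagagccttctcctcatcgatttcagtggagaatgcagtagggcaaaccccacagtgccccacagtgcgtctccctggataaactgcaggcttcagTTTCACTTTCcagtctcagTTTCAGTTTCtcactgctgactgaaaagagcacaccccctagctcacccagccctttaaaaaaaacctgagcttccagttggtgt
Isg15: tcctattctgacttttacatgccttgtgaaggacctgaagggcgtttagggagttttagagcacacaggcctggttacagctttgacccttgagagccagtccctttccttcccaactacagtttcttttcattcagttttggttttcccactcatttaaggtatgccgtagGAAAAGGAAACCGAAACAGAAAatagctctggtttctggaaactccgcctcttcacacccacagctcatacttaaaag
In Ifit3 the 2 matches began 156 and 122 bases before the start, and in Ifit3b 188 and 154 bases before it. The 74 bases that span both matches with 15 bases on either side were the same letters in the 2 genes, and with a shift of 32 bases 201 of 268 bases were identical over the whole window. The promoters of Ifit3 and Ifit3b are therefore close in sequence. Their transcripts were not compared, and how far the array's probes tell the 2 genes apart was not tested. The Ifit1 matches began 104 and 85 bases before its start, and the 3 overlapping Isg15 matches 78, 72 and 66 bases before its start.

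Shorter stretches of 3 further members show the same letters beside very different ranges in set 1. They lie at chr5:120777710-120777749 for Oas3, chr12:26456548-26456587 for Rsad2 and chr8:71537572-71537617 for Bst2, each on the minus strand.
Oas3: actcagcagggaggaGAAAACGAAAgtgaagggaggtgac
Rsad2: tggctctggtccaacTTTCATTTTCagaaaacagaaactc
Bst2: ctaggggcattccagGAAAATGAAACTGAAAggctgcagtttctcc
Bst2, with 2 overlapping matches, had a range of 0.51 log2 units over the arrays of set 1, and Oas3, with 1 match, had 1.31. Oasl2, with no match in its window, had 2.87. Of the 11 members that stood at least 1 log2 unit lower with the PPARα agonist than with DMSO in set 1, 8 had a promoter entry and 4 of those held the core, against 9 of the 21 other members with an entry. The same counts held for the 12 members that stood at least 1 lower with the PPARγ agonist, with 4 of 8 against 9 of 21.

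Among the sensors, Ddx58 encodes RIG-I and Ifih1 encodes MDA5, the cytosolic receptors of viral RNA, Dhx58 encodes their relative LGP2, and Zbp1 encodes a sensor of Z-form nucleic acid. Ddx58 stood at 11.03, 11.12 and 10.67 with agonists of PPARα, PPARβ and PPARγ in set 1, against 11.34 with DMSO, and at 11.85, 11.61 and 11.57 in set 2, against 11.91. It was lower with the PPARγ agonist than with DMSO by 0.67 in set 1 and 0.34 in set 2. At least 0.3 lower in both sets were 4 of 36 tested members, Ddx58 among them, beside 2.59% of all tested genes. The PPARβ array was the highest of set 1 for Ifih1, at 9.43, against 8.93 with DMSO. Over the 4 sensors the range in set 1 was 0.51 to 1.05, and in set 2 0.28 to 0.57.

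Of the transcription factors that carry the signal, Irf7, the interferon-induced amplifier of interferon production, followed the pattern most widely. Irf7 stood at 8.27, 10.23 and 8.07 with agonists of PPARα, PPARβ and PPARγ in set 1, against 9.68 with DMSO, and at 8.74, 8.72 and 8.58 in set 2, against 8.81. Stat2 and Irf9, which encode parts of ISGF3, had narrower ranges. Stat2 spanned 0.92 in set 1 and 0.55 in set 2, with the PPARγ array lowest in set 1, at 9.58, and highest in set 2, at 10.54. Irf9 spanned 0.45 in set 1, and its highest array there was that of the PPARα agonist, at 11.11.

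The ISG15 system had 2 of the widest ranges. Isg15, a ubiquitin-like protein that is attached to other proteins during the response, stood at 6.36, 6.84 and 5.76 with agonists of PPARα, PPARβ and PPARγ in set 1, against 7.998 with DMSO. In set 2 its values were 6.03, 6.01 and 5.76, against 6.12. Here the DMSO array of set 1 alone stood more than 1 above the other 7, so Isg15 was also the 1 tested member that stood at least 1 lower with the PPARβ agonist than with DMSO in set 1, beside 0.370% of all tested genes. Usp18, which removes ISG15 and restrains the interferon receptor, stood at 6.74, 9.22 and 6.87 in set 1, against 8.80 with DMSO, and at 6.93, 7.61 and 7.01 in set 2, against 6.98. Its PPARβ value was the highest of each set. Herc6, the mouse ligase that attaches ISG15, spanned 0.49 in set 1, with the PPARβ and DMSO arrays at 11.72 each to 2 decimals.

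The IFIT proteins bind foreign RNA and hold back its translation. The 4 IFIT genes among the members lie on chromosome 19 between positions 34550694 and 34650009 of build mm10. Their order is Ifit2, Ifit3, Ifit3b, Ifit1, with gaps of 6995, 18951 and 27470 bases. Ifit3b stood at 7.11, 9.97 and 6.92 with agonists of PPARα, PPARβ and PPARγ in set 1, against 9.31 with DMSO, and at 7.18, 7.28 and 6.53 in set 2, against 6.91. Its range in set 1, 3.05, was the widest of the 39 members, and Ifit3, whose promoter is close in sequence, had 2.76. Ifit1 stood at 6.08, 7.92 and 5.43 in set 1, against 6.94 with DMSO, and at 5.70, 6.08 and 6.40 in set 2, against 6.12. Ifit2, their neighbour, did not share the wide range: it stood at 9.92, 10.22 and 9.57 in set 1, against 9.74 with DMSO, and between 10.01 and 10.19 in set 2. The PPARβ array of set 1 was the highest in all 4 of these IFIT genes.

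The OAS proteins make the messenger that activates RNase L, which degrades RNA, while Oasl1 and Oasl2 encode OAS-like proteins. Oasl2 stood at 5.68, 8.55 and 6.27 with agonists of PPARα, PPARβ and PPARγ in set 1, against 8.02 with DMSO, and at 5.55, 5.58 and 6.29 in set 2, against 5.96. The 2 high arrays of set 1 lay at 8.02 and above, and the other 6 at 6.29 and below. Oas3 stood at 6.53, 7.57 and 7.04 in set 1, against 7.84 with DMSO, and at 7.07, 7.48 and 7.41 in set 2, against 7.44, so the PPARα value was the lowest of each set. Oas1a spanned 0.71 in set 1 and 0.48 in set 2. Oasl1, next to Oasl2 on chromosome 5, and Oas2, next to Oas3, were below the test's minimum, with 2.39 to 3.10 and 3.62 to 3.96 over the 8 arrays, and were not tested.

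The remaining enzymes that act on RNA differed among themselves. Isg20, an exonuclease that degrades viral RNA, stood at 10.01, 11.44 and 9.84 with agonists of PPARα, PPARβ and PPARγ in set 1, against 11.45 with DMSO, and at 8.96, 9.10 and 8.72 in set 2, against 9.03. All 4 arrays of set 1 lay above all 4 of set 2. Eif2ak2, the kinase PKR that stops translation when it binds double-stranded RNA, spanned 0.81 in set 1 and 0.31 in set 2. Adar, which edits adenosines in double-stranded RNA, spanned 0.37 and 0.28.

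Mx1, a GTPase that blocks influenza and related viruses in the nucleus, stood at 6.37, 8.37 and 6.17 with agonists of PPARα, PPARβ and PPARγ in set 1, against 8.43 with DMSO. In set 2 it stood at 5.90, 5.78 and 6.42, against 6.16, with the PPARβ array lowest, so the high PPARβ value was seen in set 1 only. Its relative Mx2, also on chromosome 16, stood at 5.45, 6.30 and 5.33 in set 1, against 6.50 with DMSO, and between 5.07 and 5.36 in set 2. Rsad2 encodes viperin, which makes a chain-terminating nucleotide, and Cmpk2, its neighbour on chromosome 12, supplies the nucleotide it uses. Rsad2 was below the test's minimum, at 3.82, 4.76 and 3.80 in set 1, against 4.42 with DMSO, and at 3.70, 4.34 and 3.88 in set 2, against 3.60. Cmpk2 stood at 7.45, 8.003 and 7.21 in set 1, against 8.06 with DMSO, and at 8.09, 8.35 and 8.12 in set 2, against 8.36. Bst2, or tetherin, which holds budding virus at the cell surface, spanned 0.51 in set 1 and 0.61 in set 2, and its PPARβ array was the highest of each set.

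The ADP-ribosyltransferase genes Parp9 and Parp14, the ubiquitin ligase gene Dtx3l, whose product works in a complex with PARP9, and Trim30a, a tripartite motif gene, spanned 0.51 to 0.75 in set 1 and 0.12 to 0.34 in set 2. Dtx3l and Parp9 overlap by 681 bases on chromosome 16 in the array's annotation, where they count as a pair of neighbours and not as independent genes. For Dtx3l the PPARγ array of set 1, at 12.34, was the lowest of all, against 12.97 with DMSO, and the 4 arrays of set 2 lay within 13.54 to 13.67.

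Among the other interferon-induced genes, Rtp4, a chaperone of G protein-coupled receptors that also acts against flaviviruses, stood at 7.52, 8.48 and 6.47 with agonists of PPARα, PPARβ and PPARγ in set 1, against 8.21 with DMSO. In set 2 it stood at 7.13, 7.75 and 6.999, against 7.27, in the same order of treatments. Ifi44, a cytoplasmic antiviral protein, stood at 5.72, 8.17 and 5.57 in set 1, against 7.41 with DMSO, and at 5.44, 6.29 and 5.35 in set 2, against 5.18. The PPARβ array was the highest of each set, by 0.76 over DMSO in set 1 and 1.12 in set 2. Xaf1, an interferon-induced promoter of apoptosis, stood at 9.12, 10.16 and 8.96 in set 1, against 9.96 with DMSO, and at 8.80, 9.64 and 9.18 in set 2, against 9.31. Lgals3bp, which encodes a secreted galectin-binding glycoprotein, stood at 11.87, 12.50 and 11.76 in set 1, against 12.31 with DMSO, and at 11.92, 12.24 and 11.79 in set 2, against 12.08, again in one order of treatments in both sets. Ifi35, Ifi27l2a, Samd9l and Sp100 had the narrow ranges, from 0.18 for Sp100 to 0.68 for Ifi27l2a in set 1.

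**Figure D2:**
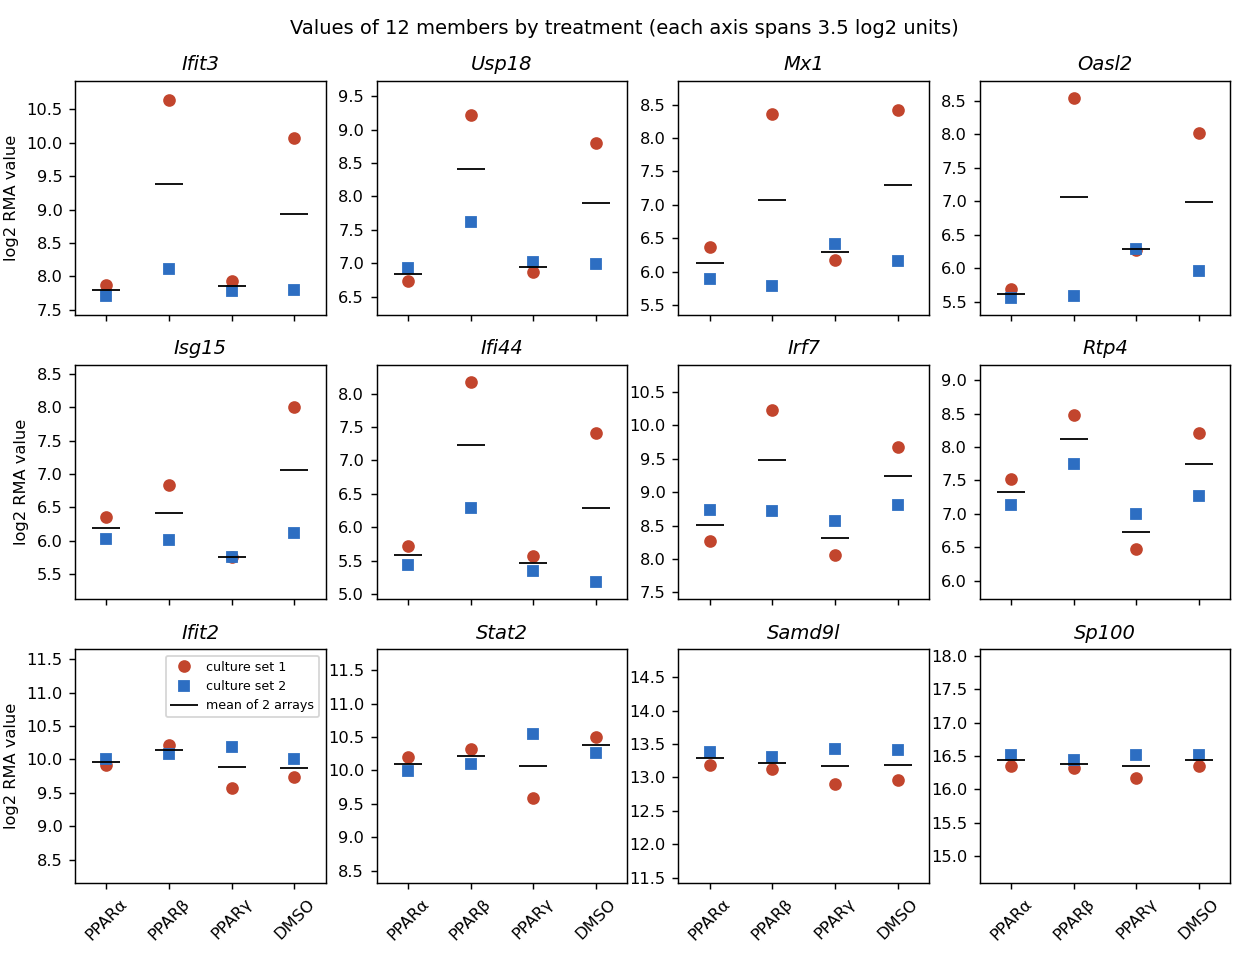
Log2 RMA value of 12 members on each array, by treatment, with circles for culture set 1, squares for culture set 2 and a line at the mean of the 2 arrays of a treatment; every vertical axis spans the same number of log2 units. In Ifit3, Usp18, Mx1, Oasl2, Ifi44 and Irf7 the circles of the PPARβ agonist and DMSO stand apart from the other 6 points, while Ifit2, Samd9l and Sp100 vary little.

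Against DMSO, the PPARα agonist had a median change over the 39 members of -0.34, made of -0.59 in set 1 and -0.12 in set 2, beside -0.02 over all tested genes. The largest mean changes were those of Oasl2 (-1.37), Mx1 (-1.16), Ifit3 (-1.14), Usp18 (-1.06) and Ifit3b (-0.97). In set 1, Oasl2 was 5.06-fold lower with the agonist than with DMSO, Ifit3b 4.61-fold, Ifit3 4.58-fold, Usp18 4.19-fold and Mx1 4.14-fold. In set 2, Oasl2 was 1.33-fold lower, Mx1 1.20-fold, Ifit3 1.06-fold and Usp18 1.04-fold, while Ifit3b was 1.21-fold higher. At least 1 log2 unit lower in set 1 were 11 of 36 tested members, beside 0.252% of all tested genes, and in set 2 there were 0 of 36, beside 0.205%. The members at least 0.3 lower in both sets were Oasl2, Oas3, Xaf1 and Ifit1, 4 of 36, beside 2.36%. Both PPARα arrays lay below both DMSO arrays in 15 of 36, beside 13.0%.

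In limma's fit over all 12696 genes with Benjamini-Hochberg adjustment, 0 of the 36 members passed an adjusted p of 0.05 for the PPARα agonist against DMSO, and 0 of all genes did. The lowest adjusted p of a member was 0.9999 in limma, and 0.986 with the culture set as a replicate block. At an unadjusted limma p under 0.05, 2 members were lower, Oas3 and Xaf1, beside 0.788% of all tested genes, and with the block 5 were, beside 2.44%. The median standard error of a member's change was 0.30, and 0.21 with the block.

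The PPARβ agonist had a median change against DMSO of 0.07 over the 39 members, with 0.11 in set 1 and 0.05 in set 2, beside -0.01 over all tested genes. The largest mean changes were those of Ifi44 (0.94), Isg15 (-0.64), Rsad2 (0.54), Usp18 (0.52) and Ifit3b (0.51). Ifi44 was 1.70-fold higher with the agonist in set 1 and 2.17-fold higher in set 2, and Usp18 1.33-fold and 1.54-fold. The members at least 0.3 higher in both sets were Ifi44, Rsad2, Usp18, Ifit3b and Ifit3, of which 4 of 36 were tested, beside 2.71% of all tested genes. Both PPARβ arrays lay above both DMSO arrays in 3 of 36, beside 10.9%. In limma, 0 of the 36 members passed an adjusted p of 0.05 and 0 an unadjusted one, with or without the block. Among all tested genes 1, or 0.00788%, passed the adjusted threshold without the block, and 2.35% passed the unadjusted one, or 6.13% with the block.

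The PPARγ agonist had a median change against DMSO of -0.32 over the 39 members, with -0.62 in set 1 and -2.75e-04 in set 2, beside -0.01 over all tested genes. The largest mean changes were those of Ifit3b (-1.39), Isg15 (-1.30), Ifit3 (-1.08), Rtp4 (-1.01) and Mx1 (-0.999). In set 1, Ifit3b was 5.24-fold lower with the agonist than with DMSO, Mx1 4.78-fold, Isg15 4.73-fold, Ifit3 4.40-fold and Rtp4 3.35-fold. In set 2, Ifit3b was 1.30-fold lower, Isg15 1.28-fold, Rtp4 1.21-fold and Ifit3 1.01-fold, while Mx1 was 1.20-fold higher. All 36 tested members stood below DMSO in set 1, beside 45.3% of all tested genes, and 20 of 36 did in set 2, beside 56.8%. At least 1 log2 unit lower were 12 of 36 in set 1, beside 0.370%, and 0 of 36 in set 2, beside 0.331%. The members at least 0.3 lower in both sets were Ifit3b, Isg15, Isg20 and Ddx58, 4 of 36, beside 2.59%, and both PPARγ arrays lay below both DMSO arrays in 9 of 36, beside 12.2%. In limma with Benjamini-Hochberg adjustment, 0 of the 36 members passed an adjusted p of 0.05, and the lowest adjusted p was 1.0, or 0.806 with the block. At an unadjusted limma p under 0.05, 3 members were lower, Isg15, Lgals3bp and Rtp4, beside 0.985% of all tested genes, and with the block 7 were, beside 3.07%. The 3 comparisons share the same 2 DMSO arrays, so the high DMSO array of set 1 enters each of them. Without that array the median over the members was -0.15 with the PPARα agonist, 0.28 with the PPARβ agonist and -0.19 with the PPARγ agonist. Without the PPARβ array of set 1 the median for that agonist was -0.045, and without the DMSO array of set 2 it was -0.015, so its sign rests on single arrays. Leaving out the PPARγ array of set 1 gave -0.12 for that agonist, and leaving out its array of set 2 gave -0.56.

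**Figure D3:**
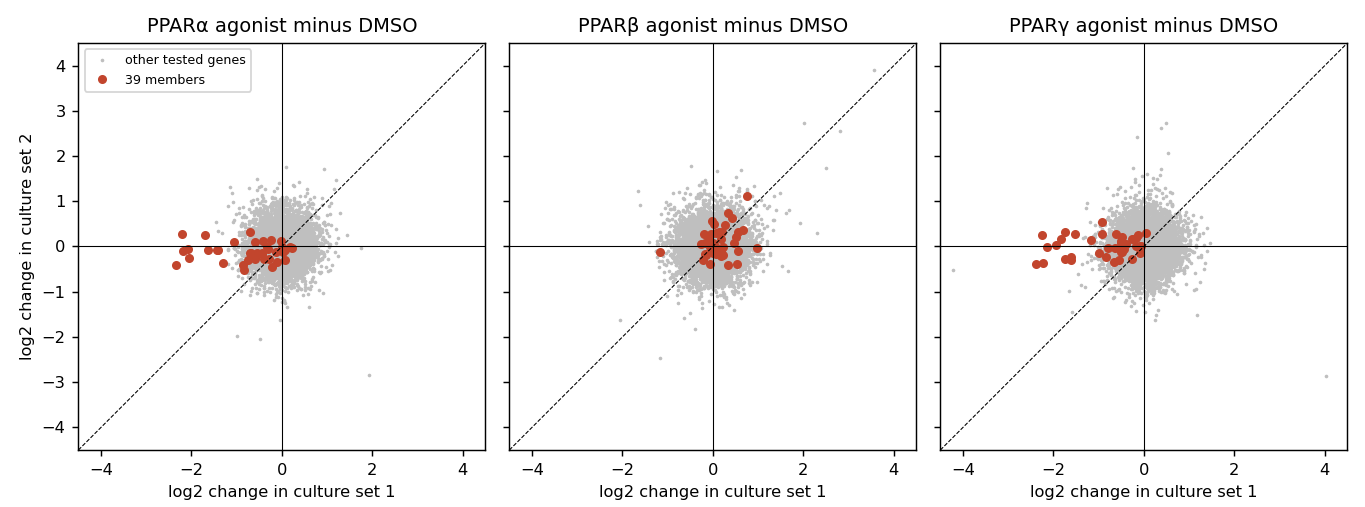
Change against DMSO in culture set 1 (horizontal axis) and in culture set 2 (vertical axis), in log2 units, for the 39 members (red) and the other tested genes (grey), with the agonists of PPARα, PPARβ and PPARγ from left to right. With the PPARα and PPARγ agonists the red points stretch to the left, to -2.34 and -2.39, but stay within -0.51 to 0.53 in set 2, and points on the dashed diagonal would have changed alike in both sets.

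Between the agonists, which leaves the DMSO arrays out, the PPARβ arrays stood above those of the others in most members. The PPARβ value was below the PPARγ value in 0 of 36 tested members in set 1, beside 52.5% of all tested genes. In set 2 it was below in 13 of 36, beside 48.0%. It was below the PPARα value in 3 of 36 in set 1, beside 47.0%, and in 6 of 36 in set 2, beside 50.4%. The median difference over the 39 members was 0.41 for the PPARβ agonist against the PPARα agonist, with 0.63 in set 1 and 0.17 in set 2, beside 0.01 over all tested genes. It was 0.42 against the PPARγ agonist, with 0.72 in set 1 and 0.08 in set 2, beside -0.0017 over all tested genes. Without the PPARβ array of set 1 these medians were 0.25 and 0.25, and without the PPARγ array of set 1 that against the PPARγ agonist was 0.16. Both PPARβ arrays lay above both PPARα arrays in 21 of 36 tested members, beside 12.2% of all tested genes, and above both PPARγ arrays in 18 of 36, beside 11.5%. The 2 comparisons share the PPARβ arrays. In both sets, 10 of 36 tested members had a PPARβ value at least 0.3 above the PPARα value, beside 2.92%, and 11 of 36 a PPARβ value at least 0.3 above the PPARγ value, beside 2.89%. Xaf1 differed by 1.04 in set 1 and 0.83 in set 2 from the PPARα agonist, and Rtp4 by 2.01 and 0.75 from the PPARγ agonist.

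In limma with Benjamini-Hochberg adjustment, 0 of 36 members passed an adjusted p of 0.05 in either of these comparisons, with lowest adjusted p of 0.9999 and 1.0, and 0.676 and 0.630 with the replicate block. At an unadjusted limma p under 0.05, the PPARβ arrays were above the PPARα arrays in 6 members (Ifih1, Lgals3bp, Oas1a, Oas3, Usp18 and Xaf1), beside 0.992% of all tested genes. They were above the PPARγ arrays in 5 (Bst2, Ifi44, Lgals3bp, Rtp4 and Xaf1), beside 1.18%. With the block these counts were 9 and 13, beside 3.04% and 3.65%. The PPARγ agonist against the PPARα agonist gave a median of -0.02 over the members, with -0.16 in set 1 and 0.10 in set 2, beside 0.0049 over all tested genes. In that comparison limma called 0 members at an adjusted p of 0.05 and 0 at an unadjusted one, where 2.01% of all tested genes passed.

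The culture sets themselves were compared with treatment held in the fit. This comparison was not itself used to choose the members, but it draws on the same 8 arrays, whose treatment values were known at that choice. The members' p-values below are therefore given as a description. In limma, 5 of the 36 members differed at an adjusted p under 0.05, 13.9%, beside 17.0% of all tested genes, so the members' share was near that of the array as a whole. With the filter at the 60th percentile it was 10 of 29, 34.5%, beside 32.4% of the genes tested there, and with an intensity trend and robust variances 12 of 36, 33.3%, beside 25.5%. Isg20 was higher in set 1, by 1.73 ± 0.26 (SE, n = 4 arrays each; limma adjusted p = 0.0067), where calls in that direction made up 9.74% of all tested genes. Dtx3l (-0.77), Ddx58 (-0.70), Parp9 (-0.57) and Cmpk2 (-0.55) were lower in set 1, with limma adjusted p of 0.0147, 0.0077, 0.0125 and 0.0277, where calls in that direction made up 7.25%. Ifit3, Ifit3b, Oasl2, Mx1 and Ifi44, whose set means differed by 1.15 to 1.35, were not called, with limma adjusted p of 0.063 to 0.111, and their set 1 mean is that of 2 high and 2 low arrays. At least 1 log2 unit above all 4 arrays of set 2 stood the DMSO array of set 1 in 9 of 36 tested members (0.654% of all tested genes), the PPARβ array of set 1 in 9 (0.843%), and the PPARα and PPARγ arrays of set 1 in 0 each (0.441% and 0.693%). Below all 4 arrays of set 2, by any amount, stood the PPARγ array of set 1 in 24 of 36 (27.2%) and the PPARα array in 18 (28.0%). The DMSO array of set 1 did so in 8 (29.6%) and the PPARβ array in 7 (28.6%). Above all 4 by any amount stood the DMSO array in 19 (28.8%), the PPARβ array in 21 (28.3%), the PPARα array in 4 (26.8%) and the PPARγ array in 1 (30.6%).

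Genes upstream of the response were measured on the same arrays. Of 21 listed interferon genes 17 had a cluster of their own, and 8 were tested. Ifnb1, the gene of interferon beta, was below the test's minimum, at 4.64, 4.80 and 4.45 with agonists of PPARα, PPARβ and PPARγ in set 1, against 5.10 with DMSO, and at 4.41, 4.85 and 4.18 in set 2, against 4.66. Ifng, the gene of interferon gamma, stood at 10.85, 12.12 and 12.80 in set 1, against 11.54 with DMSO, and at 8.18, 8.71 and 8.08 in set 2, against 7.42. Its 4 arrays of set 1 all lay above those of set 2, by 3.73 ± 0.30 in the means (SE, n = 4 arrays each; limma adjusted p = 0.0012), and within set 1 the PPARγ array, where the antiviral genes were lowest, held its highest value. The interferon lambda genes Ifnl2 and Ifnl3 had changes of -0.62 and -0.43 with the PPARβ agonist against DMSO, with limma adjusted p of 0.9999 each. Their levels were low: Ifnl2 lay within 4.57 to 5.53 over the 8 arrays, around the test's minimum of 4.892, and Ifnl3 within 5.83 to 6.41. Of the interferon genes, limma called 0 in any comparison of treatments at an adjusted p of 0.05, and, without the block, 1 of 8 at an unadjusted p under 0.05 with the PPARβ agonist against DMSO, lower, beside 1.21% of all tested genes, and 0 with either of the other agonists. With the block it called 2 of 8 lower with the PPARβ agonist, beside 3.16%.

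The receptor and its transducers varied less than the members. Ifnar1 lay within 12.45 to 13.19 and Ifnar2 within 13.76 to 14.40 over the 8 arrays. Irf1, an interferon-induced transcription factor, lay within 14.11 to 14.79. Socs1, the feedback inhibitor of the receptor's kinases, stood at 10.11, 10.52 and 9.95 with agonists of PPARα, PPARβ and PPARγ in set 1, against 10.12 with DMSO, and at 10.25, 10.73 and 9.94 in set 2, against 10.43, so its PPARβ array was the highest and its PPARγ array the lowest of each set. Both the PPARβ and the DMSO array stood above both others in 9 of the 18 genes of this list in set 1, beside 15.6% of all tested genes. In set 2 they did so in 3 of 18, beside 20.0%. The PPARγ array was the lowest in 12 of 18 in set 1, beside 22.4%, and in 8 of 18 in set 2, beside 30.5%. Over the 18 genes, the median change was -0.07, 0.03 and -0.14 with agonists of PPARα, PPARβ and PPARγ against DMSO. Over 13 genes of nucleic acid sensing and its adaptors it was -0.02, -0.01 and -0.06. In limma 0 genes of these lists passed an adjusted p of 0.05 in any comparison of treatments, and against DMSO 0 passed an unadjusted one without the block. With the block, 1 of the 18 genes passed it higher with the PPARβ agonist against DMSO, beside 2.97% of all tested genes, and 2 lower with the PPARγ agonist, beside 3.07%.

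Interferon-induced genes outside the 39 had smaller median changes, and in set 1 many of them had the same array order. Of 51 listed, 48 had a cluster and 44 were tested. In set 1 the highest array was that of the PPARβ agonist or of DMSO in 41 of 48 and the lowest that of the PPARα or PPARγ agonist in 42. Over all tested genes the PPARβ array was the highest there in 25.7% and the DMSO array in 22.7%. The PPARα array was the lowest in 27.1% and the PPARγ array in 22.4%. Both the PPARβ and the DMSO array stood above both others in 25 of 48 in set 1, beside 15.6% of all tested genes. In set 2 they did so in 8 of 48, beside 20.0%. Whether this differed from the members was not tested. The median change against DMSO was -0.10 with the PPARα agonist, 0.06 with the PPARβ agonist and -0.13 with the PPARγ agonist. Within set 1 those medians were -0.17, 0.0021 and -0.22. At least 0.3 higher with the PPARβ agonist in both sets were 6 of the 48, of which 5 of 44 were tested, beside 2.71% of all tested genes. They were Ly6a, Ly6c2, Cxcl10, which encodes a chemokine that draws in T cells, Oas1b, Trim21 and Slfn4, which was below the test's minimum, at 3.62 to 4.95. Ly6a, which encodes the surface protein Sca-1, stood at 11.91, 13.40 and 11.84 with agonists of PPARα, PPARβ and PPARγ in set 1, against 12.80 with DMSO, and at 13.29, 14.41 and 13.20 in set 2, against 13.41. Ly6c2, a T cell surface protein, stood at 12.99, 14.18 and 12.91 in set 1, against 13.53 with DMSO, and at 14.33, 14.81 and 14.32 in set 2, against 14.26. At least 0.3 lower with the PPARα agonist in both sets were Parp12, another ADP-ribosyltransferase gene, with changes of -0.62 and -0.70, and Cxcl10, with -0.79 and -0.39. In limma 0 of the list passed an adjusted p of 0.05 in any comparison of treatments; at an unadjusted p under 0.05, 1 of 44 was lower with the PPARα agonist against DMSO without the block, beside 0.788% of all tested genes, and 0 with either of the other agonists. With the block, 3 were lower with the PPARα agonist, beside 2.44%, 4 higher with the PPARβ agonist, beside 2.97%, and 2 lower with the PPARγ agonist, beside 3.07%.

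The guanylate-binding proteins and immunity-related GTPases, which attack the vacuoles of intracellular parasites and respond strongly to interferon gamma, had the members' order of mean levels in set 1. Of 16 listed, 11 had a cluster of their own and all 11 were tested. The PPARβ array was the highest in 10 of 11 in each culture set, beside 25.7% of all tested genes in set 1 and 25.0% in set 2. The PPARγ array was the lowest in 11 of 11 in set 1, beside 22.4%. In set 2 it was the lowest in 4 of 11, near the 30.5% of all tested genes. The list's mean stood at 12.70, 13.14 and 12.45 with agonists of PPARα, PPARβ and PPARγ in set 1, against 12.88 with DMSO, and at 13.37, 13.79 and 13.43 in set 2, against 13.35. The mean of the 39 members stood at 8.84, 9.72 and 8.70 in set 1, against 9.59 with DMSO, and at 8.90, 9.12 and 9.02 in set 2, against 9.01. For the GTPases in set 2 the DMSO mean was the lowest of the 4, and every treatment had a higher mean in set 2 than in set 1. The median change against DMSO was -0.10 with the PPARα agonist, 0.30 with the PPARβ agonist and -0.21 with the PPARγ agonist. Iigp1 was 0.42 and 0.88 above DMSO with the PPARβ agonist in sets 1 and 2, Gbp8 0.59 and 0.49, Gbp2 0.31 and 0.64, and Gbp7 0.46 and 0.40. Gbp3 had changes of -0.55 and -0.35 with the PPARγ agonist against DMSO. In limma 0 of the 11 passed an adjusted p of 0.05 in any comparison of treatments and, without the block, 0 passed an unadjusted one, while with the block 4 were higher with the PPARβ agonist against DMSO, beside 2.97% of all tested genes, and 1 lower with the PPARγ agonist, beside 3.07%. For the PPARβ against the PPARα agonist, 7 of 11 were higher with the block, beside 3.04%, and against the PPARγ agonist 8 of 11, beside 3.65%.

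**Figure D4:**
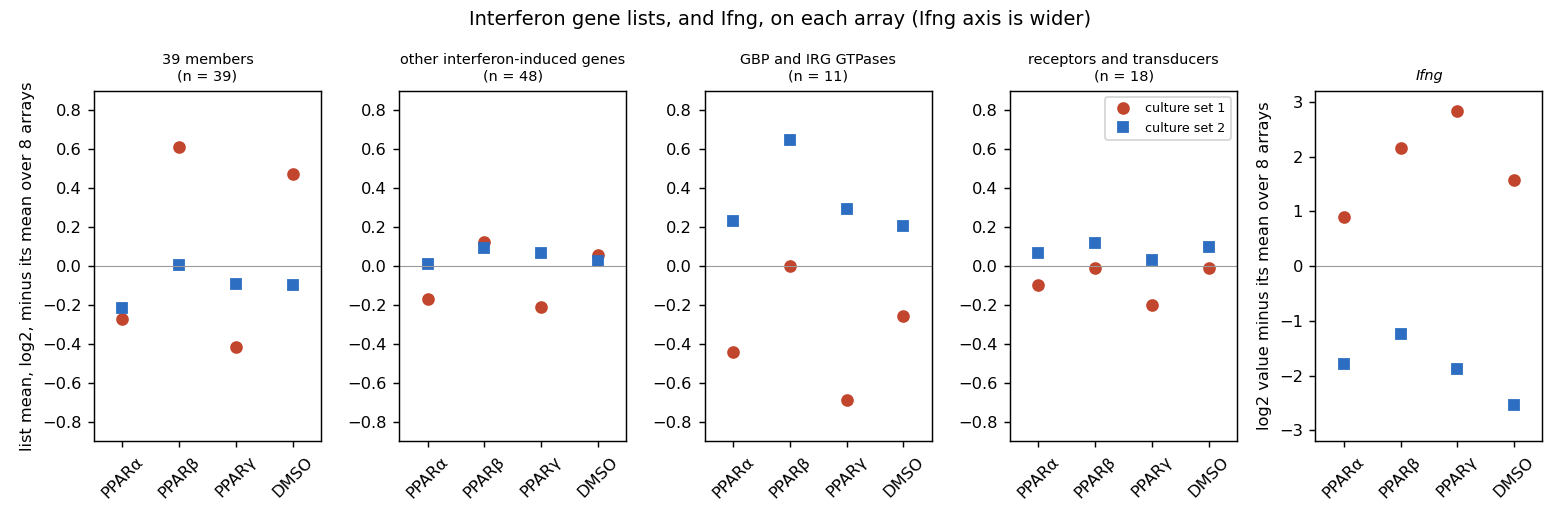
Mean log2 value of a gene list on each array minus its mean over the 8 arrays, for the 39 members, other interferon-induced genes, GBP and IRG GTPases and receptors with their transducers, and at the right the value of Ifng alone on a wider axis; circles are culture set 1 and squares culture set 2. The 39 members stand high on the PPARβ and DMSO arrays of set 1, whereas the GTPases stand higher in set 2 and Ifng stands higher in set 1 on all 4 arrays.

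The labelled cell type was checked against its markers. The 8 markers of CD8 T cells averaged 14.28 to 14.56 over the 8 arrays, and Cd8a lay within 16.48 to 16.73, but Prf1 within 6.59 to 7.66. Between the sets, Gzmb and Il2ra of this list were higher in set 1, by 0.72 and 0.82 (limma adjusted p = 0.0085 and 0.0046). Calls in that direction made up 9.74% of all tested genes. The other markers of the list were not called, with limma adjusted p of 0.17 to 0.82. Markers of other cells that could make or answer interferon were partly below the test's minimum. Of the conventional dendritic cell markers 5 of 6 were below the test's minimum, of the monocyte or macrophage markers 5 of 7, of the B cell markers 4 of 6, of the NK cell markers 3 of 4 and of the neutrophil markers 3 of 5. Of those above it, Cd79b of the B cell list lay within 9.13 to 9.94 and Fcgr3 of the NK cell list within 5.74 to 6.94. Cd68 of the macrophage list stood at 7.80, 8.06 and 7.96 with agonists of PPARα, PPARβ and PPARγ in set 1, against 8.56 with DMSO. In set 2 it stood at 7.83, 8.02 and 8.01, against 8.14. The others above the minimum lay at 5.95 or below. Whether such cells contributed was not tested. The 6 plasmacytoid dendritic cell markers averaged 6.69 to 6.70 with the PPARα agonist, 6.59 to 6.75 with the PPARβ agonist and 6.49 to 6.81 with the PPARγ agonist, against 6.52 to 6.81 with DMSO, and among them Siglech, which defines these cells, lay within 5.34 to 5.97. Between the sets, Siglech differed by -0.32 (set 1 minus set 2; limma adjusted p = 0.0993), while Ccr9 and Ly6d of that list were higher in set 1, by 0.80 and 0.52 (limma adjusted p = 0.0140 and 0.0125), and whether such cells contributed was not tested. Of the 3 CD4 T cell markers with a cluster, Cd4 was higher in set 1, by 0.82 ± 0.16 (SE, n = 4 arrays each; limma adjusted p = 0.0162), as was Cd40lg, by 0.70 (limma adjusted p = 0.0259). Zbtb7b, the lineage factor, differed by -0.05 (limma adjusted p = 0.80), and whether CD4 T cells contributed to the antiviral transcripts was not tested.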

How the data were processed

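RNA of 8 CD8+ T cell samples was measured on Clariom S Mouse arrays. The authors deposited log2 expression values made by RMA in Expression Console, per the labels and the submitters' processing notes, with no version given. RMA makes the arrays' distributions alike, so a change shared by most genes is removed. The linear intensity columns the authors deposited equal 2 to the power of the log2 values within 1.5e-06 log2 units and were not tested. Per the file headers, coordinates are on mm10. The scaling behind array maxima of 19.01 to 19.16 was not stated, and folds assume plain log2 units.

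Clusters naming 1 gene were kept, the highest-mean cluster per gene, with symbols updated through RefSeq GRCm38.p6. limma 3.58.1 (R 4.3.3) was fitted to all 8 arrays with 1 mean for each of the 4 groups, leaving 4 residual degrees of freedom. Its tests were two-sided, with Benjamini-Hochberg adjustment over 12696 genes. A second fit took the title prefix as the replicate block. It pairs the arrays: the differences between sets, gene by gene, had correlations of 0.496 to 0.550 between groups, over 6 pairs of groups. The fit was tested on simulated data. Python 3.11.15, pandas 2.3.3, numpy 2.4.6 and matplotlib 3.10.9 made tables and plots.

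The members and lists were chosen with earlier results of these data known. Values are given in full for the 5 members with the largest mean change per agonist and for up to 5 with a change of at least 0.3 the same way in both sets, and further members were named after their values were seen. From the other lists, Ifnb1, Ifng, Ifnar1, Ifnar2, Irf1 and Socs1 and up to 4 genes per list with such a change were named. 1 gene of that rule is not reported here.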

Additional observations from a re-analysis of the deposited data

How the results depend on the processing

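In limma, 0 of the 36 tested members passed an adjusted p of 0.05 in each of the 6 comparisons of treatments under every alternative run: the replicate block (0 for each), fits without 1 array, with and without the block, other filters, median centring, quantile normalization, averaged clusters, intensity trend with robust variances, and fits on only the 4 arrays compared. The median change of the members ranged, over fits that each leave out 1 array, from -0.41 to -0.15 for the PPARα agonist against DMSO (with the block -0.50 to -0.20), from -0.045 to 0.28 for the PPARβ agonist and from -0.56 to -0.12 for the PPARγ agonist (-0.59 to -0.046). For the PPARβ agonist with the block it was -0.13 without its own array of set 1, -0.078 without the DMSO array of set 2, 0.21 without its own array of set 2 and 0.26 without the DMSO array of set 1. It ranged from 0.25 to 0.51 for the PPARβ against the PPARα agonist (0.23 to 0.54), from 0.16 to 0.62 against the PPARγ agonist (0.13 to 0.60) and from -0.18 to 0.15 for the PPARγ against the PPARα agonist (-0.28 to 0.30). The 5 members that differed between culture sets were 4 to 6 with 1 array left out, 10 of 29 with the filter at the 60th percentile (34.5%, beside 32.4% of all genes tested there) and 12 of 36 with the intensity trend and robust variances (33.3%, beside 25.5%). The block changed no call of a member at an adjusted p of 0.05 in the comparisons of treatments. At an unadjusted limma p under 0.05 it raised the members' counts, and the shares of all tested genes, in several of them. The limit is the number of arrays: each treatment has 1 array per culture set, so no difference within a set has a replicate.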
